A study of Mus musculus with 4 samples.

Results

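Single wells of mouse blastocysts that had received a morpholino against NKX1-2 were ranked by the level of 4 early-embryo transcripts, Obox8, Tdpoz4, AF067063 and Bex6. The 29 wells with the highest score, called high-score wells, were compared with the 29 wells with the lowest score, called low-score wells, to ask which other genes differed with it. Members were chosen by these measured values alone. The score of a well was the mean over these genes of the natural log of 1 plus the counts per 10000 counts. Wells were ranked within each of 2 blastocyst plates, and the outer parts of the ranking were taken, 15 high and 15 low wells of 47 in replicate 1, and 14 and 14 wells of 44 in replicate 2. These 58 wells came from 91 NKX1-2 blastocyst wells with at least 2000 detected genes and from 384 wells in all. The score was measured in the same way in 86 CTRL blastocyst wells, which carried the control morpholino, in 95 NKX1-2 morula wells and in 96 CTRL morula wells.

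The study injected mouse embryos with either morpholino and counted transcripts in 96-well plates, 2 plates of blastocyst and 2 of morula wells, with odd wells for NKX1-2 and even wells for control. A morpholino is an antisense oligonucleotide that blocks translation or splicing of its target RNA and need not lower its level, and NKX1-2 is a homeobox transcription factor. Nkx1-2 had 0 counts on every plate, which allows up to 1.20 and 0.948 CPM on the blastocyst plates and up to 0.662 and 0.669 CPM on the morula plates (CPM, counts scaled to the total of a sum), so the counts do not check the morpholino. The labels name a single cell source, but not the strain, the age in days or the embryo each well came from. The plate was therefore the replicate (n = 2). For high-score against low-score wells, p-values measure how far the change along the ranking differed between plates. The level of each plate was removed as a block, and the spread was pooled over NKX1-2 and CTRL sums, the wells in between included. For the stages, p-values measure the spread between plates. Counts of single wells ran from 6966 to 64564 in the wells compared, and their sums per plate held 440642 and 552522 counts for the high-score wells and 430776 and 543487 counts for the low-score wells. A higher sum can come from more wells with a transcript or from more transcript per well.

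Mammalian embryos begin with maternal RNA and then switch on their own genome, which in the mouse happens around the 2-cell stage. Obox8 belongs to the oocyte-specific homeobox family, whose members act in genome activation, and Tdpoz4 to a family of speckle-type POZ proteins expressed in early embryos. At the blastocyst stage an outer epithelium, the trophectoderm, surrounds the inner cell mass, from which epiblast and primitive endoderm arise. The trophectoderm is known for keratins, tight junctions and a cortical actin network.

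The score was low in most blastocyst wells and high in a few. In NKX1-2 blastocyst wells its mean was 0.147 in replicate 1 and 0.283 in replicate 2, with medians of 0.0777 and 0.147. In CTRL blastocyst wells the means were 0.194 and 0.0824, with medians of 0.0983 and 0.0646. The 2 plates thus went in opposite directions, with NKX1-2 minus CTRL at -0.0467 in replicate 1 and 0.200 in replicate 2 (mean 0.0768, SD 0.175, n = 2), and no test was run, since an exact permutation over 2 plates cannot pass 0.05. In NKX1-2 morula wells the means were 0.482 and 0.591, and in CTRL morula wells 0.405 and 0.442. Each of the 4 morula means was above each of the 4 blastocyst means, but stage and plate cannot be told apart. A score of 0 was found in 18 and 7 NKX1-2 blastocyst wells and in 14 and 18 CTRL blastocyst wells. In the morula it was found in 1 and 0 NKX1-2 wells and in 0 and 0 CTRL wells. Morula wells were deeper, with median counts of 47763.5 and 48648 for NKX1-2 and 44201 and 41251 for CTRL. In the blastocyst the medians were 30453 and 37602 for NKX1-2 and 22391 and 31360 for CTRL. The part of depth in the scores of 0 was not tested.

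**Figure D1:**
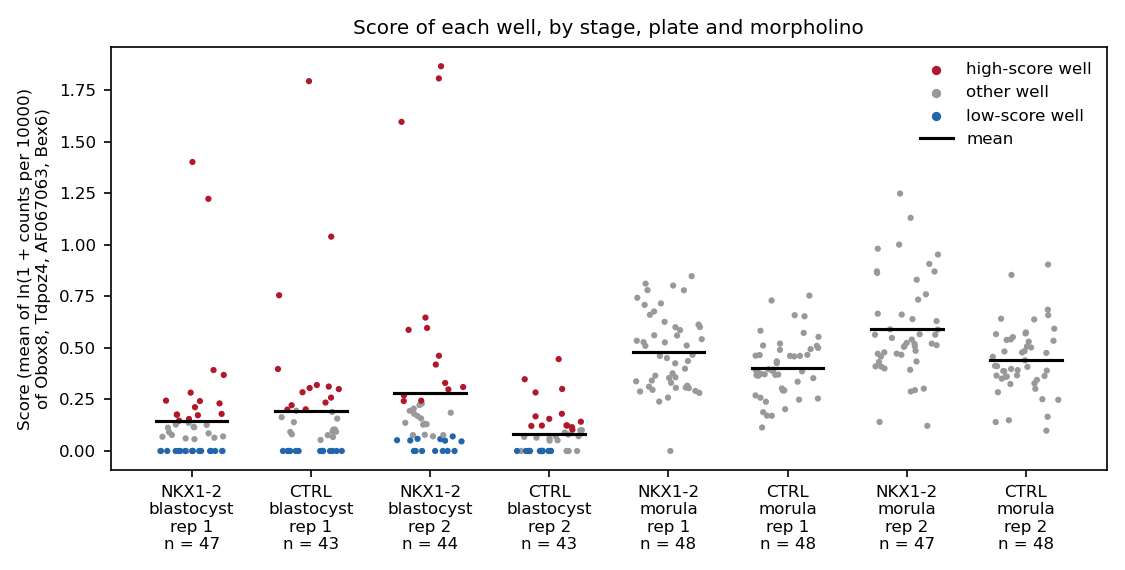
Score of each well (vertical axis, mean of the natural log of 1 plus counts per 10000 over 4 genes) by stage, morpholino and replicate plate, with a line at the mean and the high-score (red) and low-score (blue) wells of the blastocyst coloured. Most blastocyst wells lie below the morula wells, while 5 NKX1-2 and 2 CTRL blastocyst wells exceed a score of 1.

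The score genes chose the wells, so their values are given with no test. In replicate 1 the lowest high-score well was at 0.147 and the well just outside at 0.137, and all low-score wells were at 0. Of the 18 wells at 0 there, 3 fell outside the low-score wells by barcode order alone. In replicate 2 the lowest high-score well was at 0.242 and the next at 0.230, and the highest low-score well at 0.0706 and the next at 0.0712. The 4 score genes had 120 and 280 counts in the high-score wells and 0 and 7 counts in the low-score wells. The 2 and 3 wells over a score of 1 held 58.3% and 56.4% of those high-score counts, each had counts of all 4 genes, and the highest scores were 1.40 and 1.87. Bex6 gave 60 of the 120 and 129 of the 280 counts and was found in 14 of 15 and 14 of 14 high-score wells. AF067063 was found in 11 and 12 of them, Obox8 in 4 and 10 and Tdpoz4 in 2 and 5. In replicate 1, 4 high-score wells had counts of 1 score gene and 8 of 2. The highest scores of NKX1-2 morula wells were 0.848 and 1.25.

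Over all NKX1-2 wells of a plate, Obox8 was at 9.21 and 38.6 CPM in the blastocyst and at 85.6 and 147 CPM in the morula. AF067063 was at 29.7 and 45.1 CPM in the blastocyst and at 62.8 and 71.3 CPM in the morula, and Bex6 at 53.1 and 98.5 CPM in the blastocyst and 167 and 208 CPM in the morula. These 3 genes were higher on both morula plates. Tdpoz4 was at 7.08 and 16.0 CPM in the blastocyst and at 5.90 and 9.59 CPM in the morula, so for this gene the stages overlapped. Tdpoz4 shares 64.6% of its 31-base stretches with other genes, and the levels of such genes are uncertain between the stages. The wells are called by their score here for that reason.

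Median depth of high-score and low-score wells was close in replicate 1 and lower for the high-score wells in replicate 2. The wells over a score of 1 had 32966 and 22622 counts in replicate 1 and 21225, 28337 and 22314 in replicate 2. The medians of all NKX1-2 wells there were 30453 and 37602. Median counts per well were 29873 and 36072 in the high-score wells, against 29028 and 42206.5 in the low-score wells, and median detected genes were 5040 and 5541, against 5245 and 6015.5. All 96 barcodes occur on all 4 plates, 6 barcodes were in the high-score wells of both blastocyst plates, and 0 were over a score of 1 on both. Xist without Y-linked counts was found in 11 of 15 and 8 of 14 high-score wells, against 13 of 15 and 4 of 14 low-score wells. Both kinds of counts were found in 4 and 6 high-score wells, against 0 and 9 low-score wells. With only the Xist wells kept, 23 genes passed among 3576 tested. This left 11 and 6 NKX1-2 wells and 5 and 2 CTRL wells at each end of the ranking. The classes thus cannot be told apart there from the loss of wells, and their part in the results below was not tested otherwise.

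Markers of other cells were read in the same sums. The 8 oocyte and polar body markers summed to 27.2 and 14.5 CPM in the high-score wells, with 5 and 4 markers at 0, against 9.29 and 95.7 CPM in the low-score wells, with 6 and 2 at 0. One low-score well of replicate 2, with 6966 counts and 2884 detected genes, held 45 of the 52 oocyte marker counts there. With wells of at least 4000 detected genes, which leaves that well out, 436 genes passed. The 6 cumulus cell markers had 0 counts in both sets of wells.

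Genes outside the score differed widely between high-score and low-score wells. Of 6132 genes tested, 409 passed an adjusted p of 0.05 (6.67%), 267 higher (4.35%) and 142 lower (2.32%) in the high-score wells (quasi-likelihood test in edgeR, p-values adjusted by Benjamini-Hochberg). Of the higher genes, 9 are score genes, belong to their families or share sequence with them, and are no findings. The other 258 higher and 142 lower genes moved the same way in both plates. Their median log2 fold changes were 1.23 and -1.09, against -0.03 over all genes tested. The genes were chosen by direction and p, so these medians give only the size of change. Without the 5 wells over a score of 1, an alternative chosen after seeing the data, 249 genes passed, 166 higher and 83 lower. Of the 400 genes, 392 were tested there, 391 kept their sign and 241 passed again. Without replicate 2 and without replicate 1, 375 and 381 of the 400 genes were tested, with no change of sign. This largely follows from their same direction in both plates. Such fits hold 1 plate, and their p-values rest on departures from a straight line over the high, middle and low sums. The count of genes that passed was 74 when Bex6 was left out of the score, 90 without the plate as a block and 117 with DESeq2.

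Genes that were higher included several with high levels in every sum. Tfrc, the transferrin receptor that takes up iron (chromosome 16, 32608920 to 32632794, plus strand, GRCm38), had 780.1 and 792 CPM in the high-score wells, against 316 and 208 CPM in the low-score wells. It was higher in both plates (log2 fold change 1.60, SE 0.18, adjusted p = 5.77e-07, edgeR). Ctsl, the lysosomal protease cathepsin L, had 2028 and 1739.5 CPM in the high-score wells, against 685 and 725 CPM in the low-score wells (log2 fold change 1.43, SE 0.17, adjusted p = 3.02e-05, edgeR). The metallothionein Mt2, which binds zinc and copper, had 4263 and 4581 CPM in the high-score wells, against 2403 and 2564 CPM in the low-score wells (log2 fold change 0.83, SE 0.10, adjusted p = 3.17e-06, edgeR), and Mt1 had 3109 and 3674 CPM in the high-score wells, against 2457 and 2622 CPM in the low-score wells (log2 fold change 0.41, SE 0.11). The call of Mt1 was lost under 12 of 25 alternatives. In each of these genes both high-score sums lay above both low-score sums. Mt1, Mt2 and Tfrc were the 3 of 13 tested amino acid and metal transport genes that passed, with a list median of 0.33. The share over all genes tested was 4.35% higher.

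Single genes of other roles were also higher. Chka, choline kinase alpha, which starts phosphatidylcholine synthesis, had 131 and 257 CPM in the high-score wells, against 40.1 and 73.3 CPM in the low-score wells (log2 fold change 1.77, SE 0.25, adjusted p = 1.65e-05, edgeR). Abcb5, an ABC transporter, had 145 and 136 CPM in the high-score wells, against 33.0 and 9.64 CPM in the low-score wells (log2 fold change 2.77, SE 0.42, adjusted p = 0.0001, edgeR), and its call was lost without either replicate. Slc5a6, the sodium-dependent vitamin transporter, had 341 and 397 CPM in the high-score wells, against 116 and 166 CPM in the low-score wells. The cap-binding translation initiation factor Eif4e had 458 and 675 CPM in the high-score wells, against 203 and 226 CPM in the low-score wells. Both passed (log2 fold changes 1.40, SE 0.19, and 1.39, SE 0.20). In the translation initiation list 4 of 47 genes rose and 0 fell, against 4.35% higher and 2.32% lower over all genes tested. They were Eif4e with the smaller changes of Eif2b1 (0.64), Eif4a3 (0.54) and Eif6 (0.53), and the list median was 0.00. The call of Eif2b1 was lost under 14 of 25 alternatives.

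**Figure D2:**
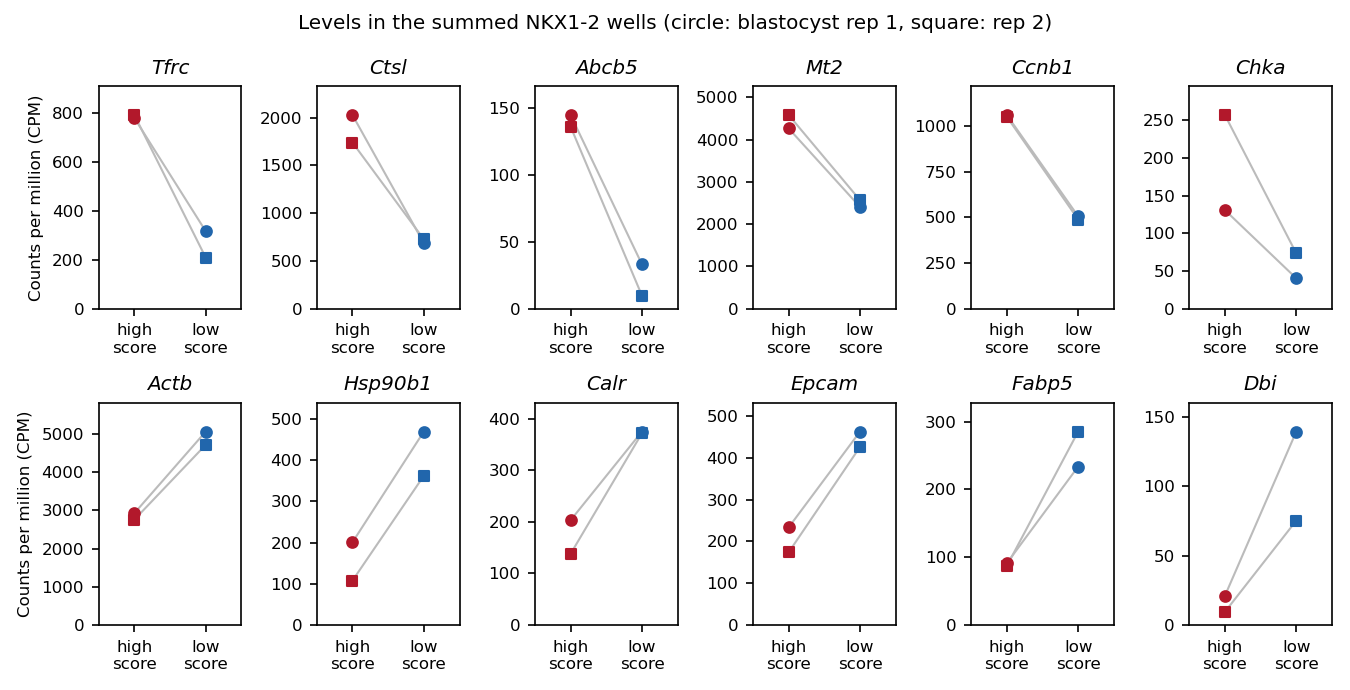
Levels in CPM (vertical axes, from 0) of 12 genes in the summed high-score (red) and low-score (blue) NKX1-2 wells, with a line joining the sums of a plate. The upper 6 genes are higher and the lower 6 genes lower in the high-score wells of both plates, and the pairs do not overlap.

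Of 48 mitosis genes tested 9 rose and 0 fell, with a list median of 0.17, against 4.35% higher and 2.32% lower over all genes tested. Ccnb1, the cyclin B1 that drives entry into mitosis, had 1060.4 and 1051 CPM in the high-score wells, against 505 and 488 CPM in the low-score wells (log2 fold change 1.09, SE 0.15, adjusted p = 1.37e-05, edgeR). Its kinase partner Cdk1 had 388 and 601 CPM in the high-score wells, against 224 and 345 CPM in the low-score wells (log2 fold change 0.79, SE 0.17, adjusted p = 0.00318, edgeR). In Ccnb1 and Cdk1 both high-score sums were above both low-score sums. Ccna2 (1.00, SE 0.19), the centromere motor Cenpe (1.01, SE 0.26), Cdc20 (0.84, SE 0.18), which activates the anaphase-promoting complex, and its ubiquitin-conjugating enzyme Ube2c (0.71, SE 0.15) rose by these log2 fold changes. The other 3 were Prc1, Racgap1 and Cks2. Without the wells over a score of 1, 8 of the 9 passed again, while Cks2, at 0.43 on the log2 scale, did not (adjusted p = 0.191, edgeR). Ccnb1 also passed without either replicate, while the other 8 lost the call without replicate 2, with Bex6 out of the score, with thinned wells (15000 counts) and in a fit with no plate block. With DESeq2 5 of the 9 passed. In the S phase list 2 of 45 genes rose, a share near that of all genes tested (4.35%), the cyclin E1 gene Ccne1 (1.45, SE 0.22) and the replication licensing factor Cdc6 (1.26, SE 0.34). Uhrf1, which maintains DNA methylation, was the 1 that fell, with 1 and 2 counts in the high-score sums.

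Transcripts of the 2-cell stage were partly higher. Of 37 such genes in the files, 15 were tested, 3 rose and 1 fell, with a list median of 0.64. The shares over all genes tested were 4.35% higher and 2.32% lower. Sp110, a nuclear body protein gene, had 336 and 448 CPM in the high-score wells, against 109 and 160 CPM in the low-score wells (log2 fold change 1.55, SE 0.21, adjusted p = 1.27e-05, edgeR). Zfp352, a zinc finger gene of the early embryo, had 19 counts in the high-score wells and 0 in the low-score wells. It was thus at least 6.21-fold higher when the low-score wells are set to a floor of 3 counts in all. Of its 19 counts, 17 were in the wells over a score of 1 and 2 in the other high-score wells. Sp110 shares 48.2% and Gm5662, the other gene that rose, 89.1% of its 31-base stretches with other genes, and their counts are uncertain. Gm5662 had 28 counts in the wells over a score of 1 and 8 in the other high-score wells. Its low-score sums were at 0 and 7.71 CPM. Zfp352 and Gm5662 could thus pass the filter on low counts through the high-score wells. This can bias their rise and the list median upward, so both are a description only. Calcoco2, an autophagy receptor, had 1654 and 1454 CPM in the high-score wells, against 2606 and 2886 CPM in the low-score wells and fell (-0.83, SE 0.11). Zscan4d, a marker of 2-cell-like cells, had 0 counts in both. Obox6, of the Obox8 family, had 346 and 441 CPM in the high-score wells, against 70.8 and 82.9 CPM in the low-score wells, and Trim43b and Trim43c, of a preimplantation tripartite-motif family, had log2 fold changes of 1.80, SE 0.21, and 3.87, SE 0.39. Obox6 is given as a description, and Trim43b shares 64.5% and Trim43c 58.6% of their stretches with other genes, so their counts are uncertain. Of 55 maternal oocyte genes 8 were tested, 0 rose and Khdc3, of the subcortical maternal complex, fell (-0.57, SE 0.14).

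Genes that fell in the high-score wells included chaperones of the endoplasmic reticulum, where secreted and membrane proteins fold. Hsp90b1, the chaperone GRP94, had 201 and 108 CPM in the high-score wells, against 469.8 and 362 CPM in the low-score wells (log2 fold change -1.49, SE 0.21, adjusted p = 2.24e-05, edgeR). Calr, the lectin chaperone calreticulin, had 203 and 138 CPM in the high-score wells, against 375 and 372 CPM in the low-score wells (log2 fold change -1.17, SE 0.19, adjusted p = 0.000204, edgeR). Hspa5, the chaperone BiP, had 194 and 146 CPM in the high-score wells, against 385 and 276 CPM in the low-score wells (log2 fold change -0.95, SE 0.19, adjusted p = 0.00194, edgeR), and the disulfide isomerase Pdia6 had 65.4 and 41.6 CPM in the high-score wells, against 177 and 129 CPM in the low-score wells (log2 fold change -1.52, SE 0.26, adjusted p = 0.000249, edgeR). In all 4 genes both high-score sums lay below both low-score sums, and the calls of Hspa5, Calr and Pdia6 were lost without replicate 2, that of Hspa5 also without replicate 1. With Bex6 out of the score all 4 calls were lost.

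The upstream sequences of these 4 genes are shown because they were the only 4 of 141 promoters of the lower genes that hold the endoplasmic reticulum stress element, CCAAT and CCACG with 9 bases (N) between them, the motif known to bind ATF6 with NF-Y in stressed cells. The motif was searched on both strands of the 250 bases before each start in RefSeq promoters of GRCm38.p6. It was found in 37 of 32851 promoters (0.113%), in 4 of 141 promoters of the lower genes (2.84%) and in 0 of 247 of the higher genes. The 32851 promoters are not limited to the genes tested. No other motif was searched, and these 4 genes were named after their values were seen. The shares are thus a description and no test of enrichment. A match is a description of the letters and shows no binding. Capitals mark the matches, and a match on the opposite strand reads as its reverse complement. The windows are chr10:86705445-86705694 on the minus strand, chr8:84846932-84847181 on the minus strand, chr2:34771840-34772089 on the plus strand and chr12:17266339-17266588 on the plus strand.
Hsp90b1: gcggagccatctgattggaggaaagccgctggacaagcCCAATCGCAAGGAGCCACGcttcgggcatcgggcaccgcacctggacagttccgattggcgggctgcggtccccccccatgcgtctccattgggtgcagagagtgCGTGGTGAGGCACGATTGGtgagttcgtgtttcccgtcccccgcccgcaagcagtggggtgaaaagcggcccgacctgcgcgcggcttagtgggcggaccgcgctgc
Calr: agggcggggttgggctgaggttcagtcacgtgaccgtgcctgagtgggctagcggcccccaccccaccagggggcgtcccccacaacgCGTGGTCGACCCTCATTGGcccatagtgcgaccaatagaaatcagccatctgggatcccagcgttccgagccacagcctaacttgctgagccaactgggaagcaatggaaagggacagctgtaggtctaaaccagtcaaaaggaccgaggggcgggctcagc
Hspa5: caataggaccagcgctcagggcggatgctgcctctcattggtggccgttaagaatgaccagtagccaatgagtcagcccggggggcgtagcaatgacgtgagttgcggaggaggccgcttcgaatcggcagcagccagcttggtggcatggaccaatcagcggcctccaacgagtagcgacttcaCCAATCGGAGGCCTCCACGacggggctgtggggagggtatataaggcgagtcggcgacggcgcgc
Pdia6: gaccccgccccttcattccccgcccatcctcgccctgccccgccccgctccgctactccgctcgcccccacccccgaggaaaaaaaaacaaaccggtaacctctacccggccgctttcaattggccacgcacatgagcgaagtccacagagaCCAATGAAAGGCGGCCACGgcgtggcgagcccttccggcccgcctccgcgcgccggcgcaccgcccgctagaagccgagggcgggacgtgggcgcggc
Hsp90b1 holds 2 matches, which start at bases -212 and -107 from the transcript start. The other 3 promoters hold 1 each, at -162 in Calr, -65 in Hspa5 and -98 in Pdia6.

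A list of 39 folding and translocation genes of the endoplasmic reticulum was written after values were seen. Of these 35 were tested, 7 fell, 1 rose and 32 were below 0, with a median of -0.54. Over all genes tested 2.32% were lower, 4.35% higher and 3242 of 6132 below 0. The peptidyl-prolyl isomerase Ppib (-0.86, SE 0.23), the signal peptidase subunit Spcs2 (-0.77, SE 0.23) and the oligosaccharyltransferase subunit Ostc (-1.11, SE 0.29) also fell, and their calls were lost under 11, 18 and 10 of 25 alternatives, DESeq2 and replicate 2 left out among them for each. Dnajb9, a co-chaperone of BiP and itself a stress target, was the 1 that rose, with 168 and 172 CPM in the high-score wells, against 104 and 63.6 CPM in the low-score wells (log2 fold change 1.04, SE 0.29, adjusted p = 0.0328, edgeR). The isomerase Pdia3 was close between the sets, with 201 and 212 CPM in the high-score wells, against 241 and 218 CPM in the low-score wells (log2 fold change -0.14, SE 0.20), and did not pass. In the cytosolic chaperone list 3 of 36 genes fell, among them Hsp90aa1 (-0.45, SE 0.10) and the chaperonin subunit Cct4 (-0.71, SE 0.17), and Dnajb6 rose (0.61, SE 0.15).

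Actin and its regulators fell in part as well. Actb, cytoplasmic beta-actin (chromosome 5, 142903115 to 142906754, minus strand), had 2929 and 2760.5 CPM in the high-score wells, against 5068 and 4722 CPM in the low-score wells (log2 fold change -0.78, SE 0.10, adjusted p = 4.43e-06, edgeR). A list of 48 actin cytoskeleton genes was also written after values were seen. Of these 41 were tested, 8 fell, 0 rose and 37 were below 0, with a median of -0.41. Over all genes tested 2.32% were lower and 3242 of 6132 below 0. Actr3, of the ARP2/3 complex that branches actin filaments, had 32.7 and 26.5 CPM in the high-score wells, against 109 and 81.0 CPM in the low-score wells (log2 fold change -1.66, SE 0.35), and Ezr, the cortical linker ezrin enriched in apical membranes, had 30.4 and 32.1 CPM in the high-score wells, against 102 and 61.7 CPM in the low-score wells (-1.33, SE 0.35). The filament-severing cofilin Cfl1 (-0.50, SE 0.13) and the monomer-binding profilin Pfn1 (-0.44, SE 0.13) fell by less. The others were Actg1, Arpc5 and Tpm4. With DESeq2 2 genes of the list passed. The calls of Arpc5, Pfn1, Ezr, Cfl1, Tpm4 and Actg1 were lost under 14, 13, 10, 9, 7 and 6 of 25 alternatives. Actr3 lost its call under 5, and Actb under 1, replicate 2 left out. Epcam, an epithelial adhesion molecule, had 234 and 174 CPM in the high-score wells, against 463 and 426 CPM in the low-score wells. Its log2 fold change was -1.15 (SE 0.20, adjusted p = 0.000402, edgeR). The membrane-binding annexin Anxa2 had 32.7 and 20.8 CPM in the high-score wells, against 68.5 and 129 CPM in the low-score wells (-1.92, SE 0.39). Both calls were lost under 5 of 25 alternatives, among them Bex6 out of the score, thinned wells, Xist wells and replicate 2 left out.

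Lineage genes gave a mixed picture. Of 25 tested trophectoderm genes 2 rose and 3 fell, with a list median of -0.75, against 4.35% higher and 2.32% lower over all genes tested. Elf3, an epithelial transcription factor, had 117 and 73.7 CPM in the high-score wells, against 259.7 and 231 CPM in the low-score wells (log2 fold change -1.40, SE 0.25, adjusted p = 0.000533, edgeR), and the keratin Krt18 had 142 and 96.4 CPM in the high-score wells, against 222 and 200.5 CPM in the low-score wells (log2 fold change -0.84, SE 0.23, adjusted p = 0.0232, edgeR). The call of Krt18 was lost under 12 of its 25 alternatives, among them either replicate left out. Krt8 had 49.1 and 56.7 CPM in the high-score wells, against 111 and 84.8 CPM in the low-score wells, and Gata3, a trophectoderm transcription factor, had 81.8 and 41.6 CPM in the high-score wells, against 102 and 121 CPM in the low-score wells. Neither passed (adjusted p = 0.118 and 0.446, edgeR). Hand1, a trophoblast transcription factor, was higher, with 58.4 and 127 CPM in the high-score wells, against 28.3 and 7.71 CPM in the low-score wells (log2 fold change 2.39, SE 0.52, adjusted p = 0.0066, edgeR), and lost its call under 5 of 25 alternatives, among them without replicate 2. The 9 defining trophectoderm markers summed to 626 and 547 CPM in the high-score wells, with 1 and 1 at 0, and to 919 and 914 CPM in the low-score wells, with 1 and 0 at 0. For a coarse balance of keratin, the wells of a plate were split into 2 groups, of higher and lower Krt8 and Krt18 level. With wells ranked within each group 407 genes passed, and of 102 named genes 24 lost their call, Krt18 and Nanog among them. The part of the whole marker list in the other results was not tested.

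Of 17 tested inner cell mass and epiblast genes, Klf2 rose and Nanog fell, against 4.35% higher and 2.32% lower over all genes tested. Klf2, a Kruppel-like pluripotency factor, had 154 and 161 CPM in the high-score wells, against 68.5 and 63.6 CPM in the low-score wells (log2 fold change 1.26, SE 0.28, adjusted p = 0.0044, edgeR), and Nanog had 49.1 and 51.0 CPM in the high-score wells, against 87.3 and 121 CPM in the low-score wells (log2 fold change -1.06, SE 0.30, adjusted p = 0.0313, edgeR). Both calls were lost without replicate 2, and that of Nanog also without replicate 1. Pou5f1 (log2 fold change 0.08, SE 0.28), the endoderm factor Gata6 (-0.32, SE 0.23) and the maternal and pluripotency gene Dppa3 (-0.16, SE 0.10) did not pass. Cdx2 and Sox2 were too low to test, with 4 and 18 counts of Cdx2 in the high-score and low-score wells and 4 and 14 counts of Sox2. The 8 defining inner cell mass markers summed to 384 and 478 CPM in the high-score wells and 441 and 401 CPM in the low-score wells, so the sets overlapped. Of 5 tested primitive endoderm genes the laminin Lamb1 fell (-1.95, SE 0.56), with its call lost under 14 of 21 alternatives. The 7 defining markers summed to 132 and 136 CPM in the high-score wells, against 193 and 171 CPM in the low-score wells.

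**Figure D3:**
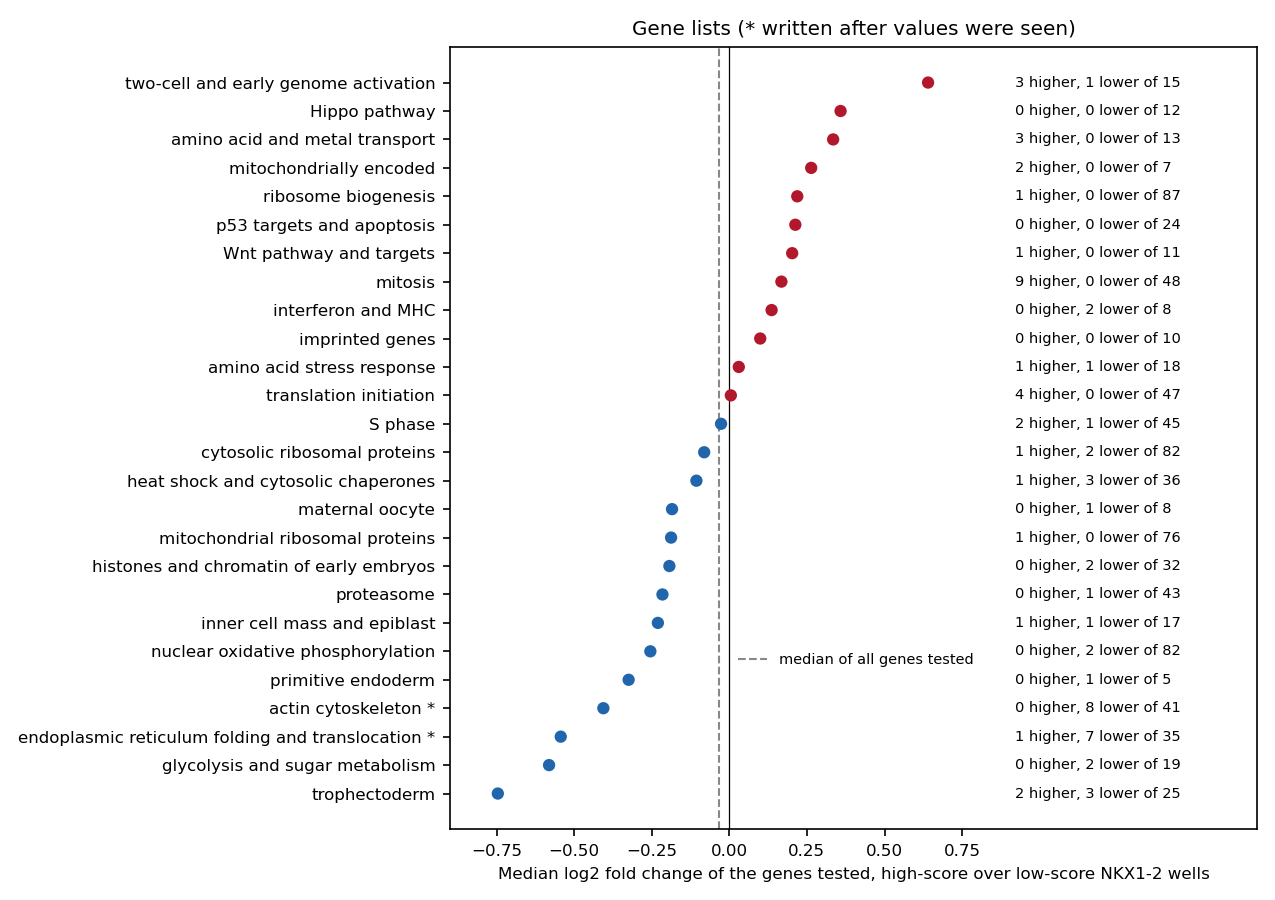
Median log2 fold change (horizontal axis) of the tested genes of each gene list with at least 5 tested genes, the score gene families left out, high-score over low-score NKX1-2 wells, with the counts of genes that passed. Of the lists shown, the 2-cell list has the highest median (0.64) and the trophectoderm list the lowest (-0.75), against -0.03 over all genes tested. Low genes of the 2-cell list could enter the test through the high-score wells, which can bias its median upward.

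Few energy genes passed, and over all genes tested 4.35% were higher and 2.32% lower. Of 19 tested glycolysis genes 0 rose and 2 fell, Gapdh (-1.59, SE 0.26) and the pyruvate kinase Pkm (-1.25, SE 0.31), with a median of -0.58, but Gapdh shares 27.2% and Pkm 34.7% of their stretches with other genes. Of 82 nuclear oxidative phosphorylation genes Cox7b (-0.93, SE 0.22) and Cyc1 (-0.78, SE 0.20) fell, a share near the 2.32% of all genes tested. The list median was -0.25 and 65 of the 82 were below 0, against 3242 of 6132 over all genes tested. In the mitochondrially encoded list 2 of 7 tested genes rose, mt-Nd2 (0.37, SE 0.11) and mt-Nd6 (0.79, SE 0.22). Fabp5, a fatty acid carrier, had 91.1 and 87.0 CPM in the high-score wells, against 234 and 285 CPM in the low-score wells (log2 fold change -1.55, SE 0.23, adjusted p = 3.28e-05, edgeR). Dbi, the acyl-CoA binding protein, had 21.0 and 9.45 CPM in the high-score wells, against 139 and 75.2 CPM in the low-score wells (log2 fold change -2.81, SE 0.37, adjusted p = 9.3e-06, edgeR), and it passed under all 25 alternatives. The major histocompatibility genes H2-K1 (-1.30, SE 0.21) and H2-D1 (-1.37, SE 0.37) were the 2 of 8 tested interferon and MHC genes that fell. Of 82 cytosolic ribosomal protein genes Rplp0 rose (0.37, SE 0.10) and Rpl3 (-0.40, SE 0.11) and Rpl6 (-0.31, SE 0.09) fell. Among 43 proteasome genes Psmd4 fell (-0.54, SE 0.15). The shares that fell in these lists are near the 2.32% of all genes tested, and the share of Rplp0 is below 4.35%. Nolc1 rose among 87 ribosome biogenesis genes (0.64, SE 0.17), Mrps6 among 76 mitochondrial ribosomal protein genes (0.71, SE 0.20) and Csnk1e among 11 Wnt genes (0.66, SE 0.20), and in the lists of 87 and 76 genes that share is below the 4.35% of all genes tested. In the amino acid stress list of 18 tested genes Nupr1 rose (2.39, SE 0.44) and Sars fell (-0.84, SE 0.25). The histone and chromatin list had 2 of 32 genes lower, Uhrf1 and the macroH2A gene H2afy (-1.41, SE 0.35). Several of these calls were fragile. Those of Rpl6, Sars, Psmd4, Csnk1e, Rpl3 and H2-D1 were lost under 17, 15, 14, 13, 12 and 12 of 25 alternatives. By edgeR 0 of 24 tested p53 target genes, 0 of 12 Hippo pathway genes, 0 of 10 imprinted genes and 0 of 1 cumulus cell gene passed, with 5, 0, 1 and 0 at an unadjusted p under 0.05 and 0 by DESeq2.

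By size of change, the 12 genes selected in each direction were mostly at low levels. Such genes can pass the filter on low counts through the wells where they are high, so these sizes are a description. Slc19a3, a thiamine transporter, had 31 counts in the high-score and 0 in the low-score wells, so it was at least 10.1-fold higher by the same floor. Of these counts, 24 were in the wells over a score of 1 and 7 in the other high-score wells. The reverse held for Tmem267, with 0 and 23 counts. The ratios of high-score to low-score level, each with its 95% exact interval for counting error, were 24.03 (6.31 to 204) for Esp24, a secreted peptide gene, 22.6 (3.66 to 929) for Tmem267, 10.8 (2.65 to 94.7) for Klhl21, a ubiquitin ligase adaptor of cell division, and 10.1 (3.16 to 51.8) for Tmem229b. Tnfsf12 (2.92, SE 0.74), the kinesin Kifc3 (2.84, SE 0.65), the growth factor Fgf1 (2.75, SE 0.67) and Efhd1 (2.64, SE 0.62) rose by these log2 fold changes. Among the lower genes the ratios were 0.0545 (0.00636 to 0.212) for Tfap2a, an AP-2 transcription factor, 0.118 (0.0227 to 0.386) for the zinc finger factor Osr2 and 0.134 (0.0256 to 0.445) for Uhrf1. The phosphate transporter Slc20a1 had 2.34 and 9.45 CPM in the high-score wells, against 54.3 and 36.6 CPM in the low-score wells (-2.78, SE 0.59), and Dkkl1 had 4.67 and 7.56 CPM in the high-score wells, against 30.7 and 48.2 CPM in the low-score wells (-2.62, SE 0.65). Egfl7, Fam117b, the nucleosome-binding Hmgn5, the ubiquitin ligase Siah2, the cytolinker Plec and Erc1 had log2 fold changes from -2.60 to -2.34. Calls were lost under 16 of 19 alternatives for Fam117b, 13 of 22 for Erc1 and 12 of 19 for Uhrf1. They were lost under 9 of 18 for Osr2 and 8 of 18 for Tmem267, while Siah2 kept its call under all 21.

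The 5 wells over a score of 1 were read apart as a description with no test. Ctsl was at 4754 CPM over the 5 wells and 1365 CPM over the other 24 high-score wells. Ccnb1 was at 2095 CPM over the 5 wells and 858 CPM over the other 24 high-score wells, and Obox6 at 785 CPM over the 5 wells and 325 CPM over the other 24 high-score wells. Hsp90b1 was at 15.7 CPM over the 5 wells and 163 CPM over the other 24 high-score wells, Actb at 1185 CPM over the 5 wells and 2961 CPM over the other 24 high-score wells and Epcam at 47.1 CPM over the 5 wells and 215 CPM over the other 24 high-score wells. For each of these genes the 5 wells were farther from the low-score wells than the other 24. Ccne1 was at 196 CPM over the 5 wells and 245 CPM over the other 24 high-score wells and Fabp5 at 102 CPM over the 5 wells and 83.2 CPM over the other 24 high-score wells, where the 5 wells were not farther.

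CTRL blastocyst wells, ranked by the same score, gave wells that the choice of NKX1-2 wells did not use. Of the 6132 genes 84 passed there (1.37%), 69 higher (1.13%) and 15 lower (0.245%). Of the 258 genes higher in the high-score NKX1-2 wells, 245 (95%) were above 0 in CTRL wells, with a median of 0.64. Of the 142 lower genes, 122 (85.9%) were below 0, with a median of -0.41. Over all 6120 genes outside the score families, 64.4% had the same sign in both. In all, 59 genes passed the same way in both, 14.8% of the 400 in NKX1-2 wells and 75.6% of the 78 in CTRL wells.

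Ctsl had 1489.8 and 1353 CPM in the high-score CTRL wells, against 806 and 752 CPM in the low-score CTRL wells (log2 fold change 0.87, SE 0.17, adjusted p = 0.0142, edgeR). Tfrc had 887 and 508 CPM in the high-score CTRL wells, against 406 and 234 CPM in the low-score CTRL wells (log2 fold change 1.12, SE 0.18, adjusted p = 0.000549, edgeR), and the sums of its high-score wells again lay above both low-score sums. Hsp90b1 had 184 and 253 CPM in the high-score CTRL wells, against 509 and 443 CPM in the low-score CTRL wells (log2 fold change -1.11, SE 0.21, adjusted p = 0.00276, edgeR), and Actb had 3010.2 and 3377 CPM in the high-score CTRL wells, against 4695 and 4209 CPM in the low-score CTRL wells (log2 fold change -0.47, SE 0.10, adjusted p = 0.00879, edgeR). For these both high-score sums lay below both low-score sums. Of the 48 mitosis genes 0 passed in CTRL wells by edgeR and by DESeq2, with 9 at an unadjusted p under 0.05, and the difference between NKX1-2 and CTRL wells passed for 0 of them.

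The difference of the effect between NKX1-2 and CTRL wells passed for 1 gene (0.0163%) by edgeR, Rps15a-ps8, and for 1 gene by DESeq2, and 368 genes had an unadjusted p under 0.05. The changes are thus not shown to be particular to NKX1-2 wells.

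**Figure D4:**
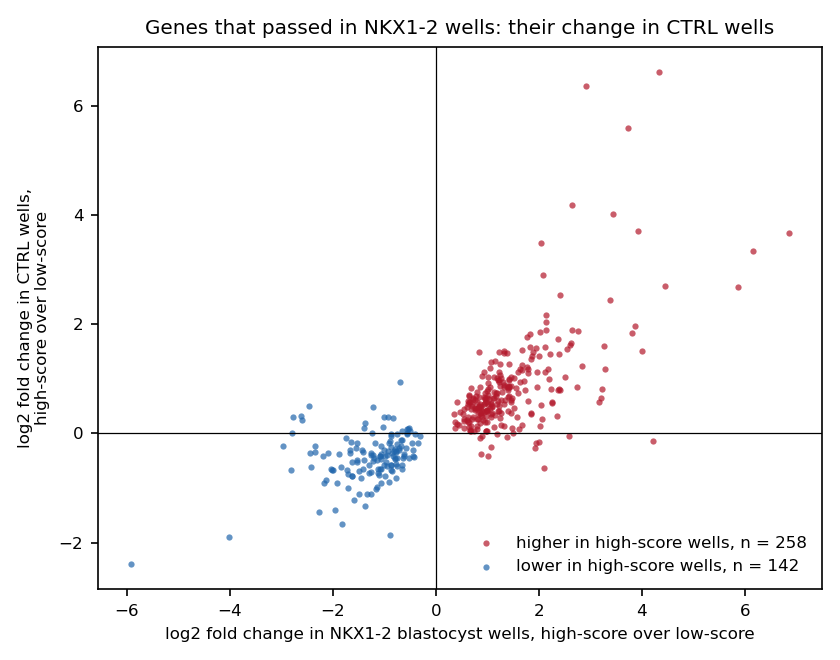
Log2 fold change of high-score over low-score wells in NKX1-2 wells (horizontal axis) and CTRL wells (vertical axis) for the 258 higher and 142 lower genes. Of these genes 245 and 122 have the same sign in CTRL wells.

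The stages were compared in CTRL wells, which are not among the NKX1-2 wells above. Each stage was on its own plates, so a difference between stages cannot be told apart from one between plates or in how they were counted. This holds for all genes. Of 9577 genes 1921 (20.1%) were higher in the blastocyst and 2072 (21.6%) higher in the morula. Of the 253 genes higher in high-score wells and tested here, 137 (54.2%) were higher in the morula and 21 (8.30%) in the blastocyst. Of the 139 lower genes, 113 (81.3%) were higher in the blastocyst and 1 (0.719%) in the morula. Over the 5946 genes tested in both comparisons, 26.8% were higher in the blastocyst and 16.3% in the morula. The median stage difference was -0.71 for the higher and 1.24 for the lower genes, against 0.18 over all of them.

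Ctsl had 1066 and 990.3 CPM in CTRL blastocyst wells, against 3636 and 3319.5 CPM in CTRL morula wells (log2 fold change -1.46, adjusted p = 7.42e-09, edgeR). Klf2 had 96.8 and 89.7 CPM in CTRL blastocyst wells, against 817 and 783 CPM in CTRL morula wells (log2 fold change -2.80, adjusted p = 1.46e-11, edgeR). Both were higher on both morula plates. Hsp90b1 had 328 and 352 CPM in CTRL blastocyst wells, against 59.8 and 59.6 CPM in CTRL morula wells (log2 fold change 2.81, adjusted p = 5.58e-11, edgeR), and Epcam had 174 and 302 CPM in CTRL blastocyst wells, against 70.9 and 65.3 CPM in CTRL morula wells (log2 fold change 2.11, adjusted p = 2.05e-07, edgeR), with the blastocyst plates above both morula plates. The change was not general, since Tfrc did not pass between the stages (log2 fold change -0.50, adjusted p = 0.0918, edgeR) and Prc1 was higher in the blastocyst (log2 fold change 1.29) as well as in the high-score wells.

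Levels of genes with near-identical copies are uncertain between the stages, as Gapdh had 179.8 and 238 CPM in CTRL blastocyst wells, against 1.85 and 2.40 CPM in CTRL morula wells. Among genes with under 1% of 31-base stretches shared with any other gene, 70 of 110 higher genes (63.6%) were higher in the morula and 3 in the blastocyst. Of 59 such lower genes 44 (74.6%) were higher in the blastocyst and 1 in the morula. Over all 2964 such genes 23.8% were higher in the blastocyst and 17.6% in the morula.

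**Figure D5:**
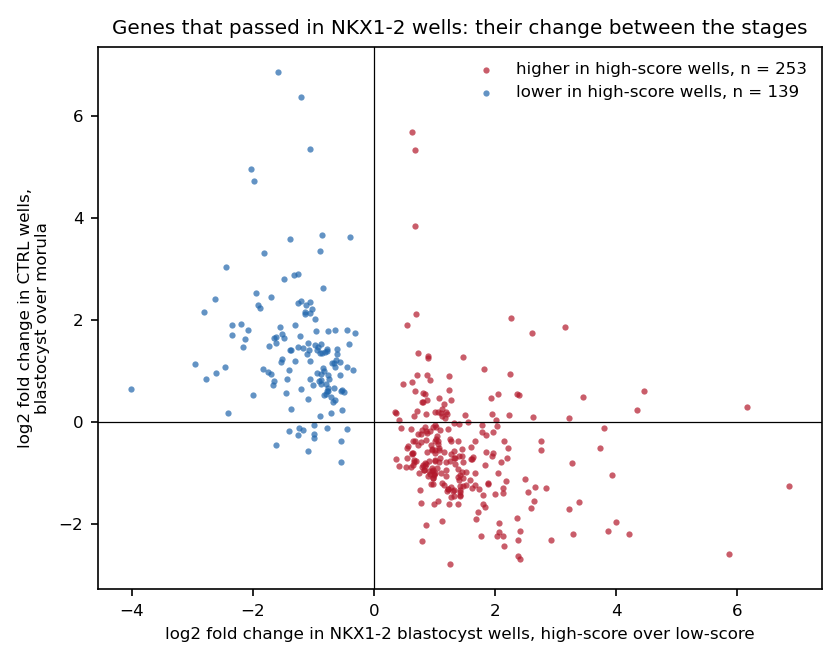
Log2 fold change of high-score over low-score NKX1-2 blastocyst wells (horizontal axis) and of CTRL blastocyst over CTRL morula wells (vertical axis) for the 253 higher and 139 lower genes tested in both. Genes higher in the high-score wells lie mostly below 0 and lower genes mostly above 0 on the vertical axis.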

How the data were processed

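The deposited values are raw counts per gene and well barcode, and a deposited table gives the morpholino of each barcode. Per the submitters' processing notes, the tools and builds include TopHat2, GRCm38 and mm10, without a stated role. Which tool made the counts, with or without strand and from reads or molecules, is not given in the sources used here. Of 384 wells, 368 reached 2000 detected genes and were kept, and no doublets were called. Blastocyst wells were ranked by the score within plate and morpholino, and counts were summed into high, middle and low wells, which gave 12 sums of 328257 to 589349 counts. These limit the precision, and exact intervals and floors of 3 counts cover counting error only. Genes passed filterByExpr, and sums were normalised by TMM. One robust quasi-likelihood fit (edgeR 4.0.16, R 4.3.3) with the plate and morpholino as a block gave both comparisons and their difference. The sums pair by plate because wells were ranked within a plate, and the deviations of high and low sums correlated at 0.105. The stages were compared over the 4 CTRL sums, without 344 neighbouring genes that have no count in the morula. Benjamini-Hochberg adjusted p-values under 0.05 passed, and the fit was tested on simulated data.

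Named genes were the 12 with the largest change in each direction that passed, moved the same way in both plates, reached 20 CPM and had a gene name, up to 4 members with a call of each of 25 lists, and 11 lineage and early genes. One gene that the rule selects is not reported here. Other named genes were chosen after their values were seen, among them Ctsl, Chka, Epcam, Fabp5 and the actin and endoplasmic reticulum genes, as were 2 lists. Wells, lists and rule were chosen with earlier results of these data known. Alternatives were RLE size factors, DESeq2 1.42.0, limma 3.58.1 voom, low counts unfiltered, every well, wells of at least 4000 genes, wells thinned to 15000 counts, other shares of wells, other scores, balancing for depth and keratin, Xist wells, no replicate block, and each replicate or highest well left out. The alternatives with ties reversed and without wells over a score of 1 were chosen after seeing the data. With a blastocyst replicate left out, 1 plate remained, and its high, middle and low sums were fitted as a straight line. Calls of high-score against low-score wells that were kept or lost there are thus no check by a second plate. Shared sequence was measured over 31-base stretches of GENCODE M21 transcripts, with 54510 of 55453 symbols (98.3%) matched. Figures and tables used Python 3.11.15, pandas 2.3.3, scipy 1.17.1 and matplotlib 3.10.9.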

Additional observations from a re-analysis of the deposited data

Results flagged for a closer look

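Rps15a-ps8, a pseudogene of the ribosomal protein gene Rps15a on chromosome 4, had log2 fold changes of opposite sign in the 2 kinds of blastocyst wells. It had 509 and 739 CPM in the high-score wells, against 928 and 1089 CPM in the low-score wells of NKX1-2, and 1710.1 and 1814 CPM in the high-score CTRL wells, against 1193 and 702 CPM in the low-score CTRL wells. The log2 fold change was -0.70 in NKX1-2 wells and 0.94 in CTRL wells, and their difference of -1.63 (SE 0.24, adjusted p = 0.00997, edgeR) passed the test of the interaction. Of its 31-base stretches 35.01% occur in other genes, so its reads are uncertain.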

How the results depend on the processing

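The count of 409 genes for high-score against low-score NKX1-2 wells was 117 with DESeq2, 110 with wells thinned to 15000 counts, 74 with Bex6 out of the score, 23 in Xist wells without Y-linked counts, 249 without wells over a score of 1, and 67 to 218 with a replicate left out. The 84 genes of CTRL wells became 23, 16, 21, 1, 52 and 36 to 68 under the same alternatives. The plate is the replicate block, and without it the counts were 90 and 0 (475 at an unadjusted p under 0.05, edgeR). The 1 gene whose effect differed between NKX1-2 and CTRL wells became 0 with thinned wells, wells split at the median score, Xist wells, ties reversed or no replicate block, 2 with fewer wells from each end of the ranking, without Obox8 or Bex6 in the score, with keratin balanced or without wells over a score of 1, and 0 to 4 with a replicate left out. The 3993 genes between the stages became 2513 with DESeq2, 3691 with the replicate number as a block, which is no pairing there, and 2586 to 4213 with a replicate left out. The mean score difference lay at -0.0467 to 0.200 with a replicate left out. With RLE size factors 276 genes were higher and 124 lower. Of 103 named genes that passed, 0 changed sign in 2458 values under the alternatives. These genes had passed and moved the same way in both plates, so a change of sign was unlikely from the start. The call was kept in 1781 values and lost in 677, most under Bex6 left out, no replicate block, replicate 2 left out, Xist wells and thinned wells. Among genes that did not pass, Krt8 was at 0.03 with keratin balanced and 0.31 in Xist wells. Pou5f1 was at -0.07 and -0.03 with wells split at the median or fewer from each end, at -0.02, -0.01 and -0.12 with Obox8, AF067063 or Bex6 out of the score, at -0.05 and -0.06 with depth or keratin balanced, at -0.10 in Xist wells and at 0.00 without its highest well. Gata6 was at 0.06 with thinned wells, and Dppa3 at 0.00 with AF067063 out of the score. The cause of these changes was not tested. Few counts per gene limit the low genes.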
